A study of Mus musculus with 4 samples.

Results

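Skin treated with platelet-rich plasma alone was set against skin treated with microneedles alone, across all genes with 1 FPKM or more in the library labelled PRP, in the library labelled MNs, or in both. FPKM is the number of sequenced fragments of a gene corrected for the length of its transcript and for the depth of the library. The filter kept 13838 of the 25571 genes in the table. Mouse skin had been taken from 4 groups labelled PRP, MNs, NC and PRP-MNs, each with 1 RNA-seq library, and the labels give no strain, age, dose or time. The letters NC are not spelled out in the labels, and whether a library held the skin of 1 mouse or of several is not given in the sources used here. Values of NC and PRP-MNs are printed as levels in the remaining libraries of the series, and all differences below are between PRP and MNs. Because each group is a single library, the differences below carry no p-value and no replicate error, and they may be differences between 2 pieces of skin.

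Platelet-rich plasma is a platelet concentrate made from blood, and the granules of platelets release growth factors such as PDGF, TGF-beta and VEGF. Microneedles are arrays of short needles that pass the horny layer of the epidermis. The epidermis renews itself from a basal layer of keratinocytes, which leave that layer, switch to other keratins and end as cornified cells held together by the cornified envelope. Hair follicles with their sebaceous glands reach down into a dermis of fibroblasts, collagen and vessels, and in the mouse a sheet of striated muscle, the panniculus carnosus, lies beneath.

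A gene was counted as higher in one library where its log2 ratio of FPKM + 1, PRP over MNs, was at least 1 in size, a 2-fold difference on that scale. By this rule 640 genes (4.62%) were higher in PRP, 829 (5.99%) were higher in MNs, and 1469 (10.6%) lay past the threshold in either direction. Of these, 122 of the 640 and 198 of the 829 were under 1 FPKM in the other library. They passed the filter only through the library where they are high. The median over all genes tested was -0.10, and 73.7% of the genes were within 1.5-fold. A 4-fold difference was reached by 79 genes in PRP and by 131 in MNs. Among the 126 genes with a mean above 500 FPKM, 15.1% were higher in PRP and 6.35% in MNs, against 4.08% and 6.62% of the 4514 genes with a mean under 5 FPKM. The threshold fell between close neighbours: Usp18 lay just past it with 10.8 FPKM in PRP and 4.91 in MNs, and Esyt3 a little short of it with 10.2 FPKM in PRP and 4.62 in MNs. At the filter, Lrp8 was just inside with 0.771 FPKM in PRP and 1.000 in MNs, and Frs3 just outside with 0.502 FPKM in PRP and 1.000 in MNs.

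The libraries differed in ways that bear on all values. Steps in the low values corresponded to 15.9 M fragments in PRP and 18.6 M in MNs, so that 3 fragments on a transcript of 1 kb were 0.189 and 0.161 FPKM, limits that cover counting error only. FPKM summed to 500187 in PRP and 448607 in MNs, and genes of the mitochondrial genome took 15.5% and 10.9% of these sums. The keratins of the basal layer marked both libraries as skin: Krt5 was at 1848 FPKM in PRP and 1605 in MNs, and Krt14 at 3700.3 FPKM in PRP and 3339 in MNs. All 4 Y-linked genes measured were present in both, with Ddx3y at 25.6 FPKM in PRP and 21.1 in MNs. Red cell genes were level, with 0 of 7 measured past the threshold and a summed level of 1625 FPKM in PRP and 1649.6 in MNs. In bulk skin, fewer cells of a type and less RNA per cell cannot be told apart.

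**Figure D1:**
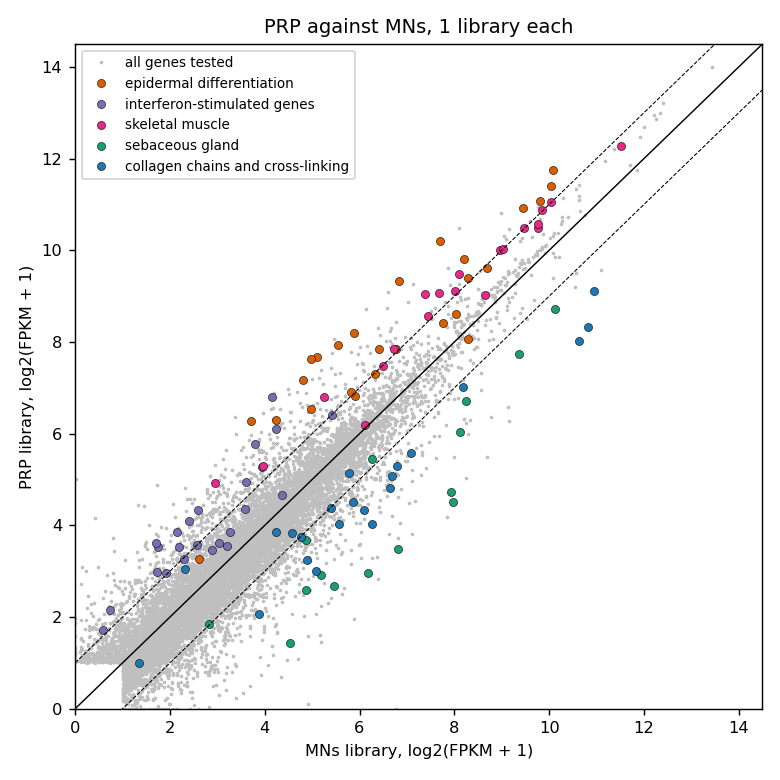
Level of every gene tested in the PRP library (vertical axis) and the MNs library (horizontal axis), both as log2 of FPKM + 1, 1 point per gene. The solid line marks equal levels and the dashed lines a 2-fold difference; epidermal differentiation, interferon-stimulated and skeletal muscle genes lie mostly on the PRP side, and sebaceous gland and collagen genes on the MNs side.

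Of the lists with more than 1 measured gene, that of the upper epidermis had the highest median in favour of PRP, except with a pseudocount of 0.1, where interferon-stimulated genes had 1.47 and the epidermal list 1.46. Of the 27 genes of keratinocyte differentiation in the list, 26 reached the filter. In PRP 19 of these were at least 2-fold higher and in MNs none, and their median was 1.45 against -0.10 over all genes tested. Krt10, the type I keratin of the layers above the basal one, was at 3428 FPKM in PRP, 1079 in MNs, 6056 in NC and 475 in PRP-MNs. Its partner Krt1 followed with 2169.6 FPKM in PRP, 900.5 in MNs, 3317 in NC and 287 in PRP-MNs. Both keratins stood highest in NC, then PRP, then MNs, and lowest in PRP-MNs. Krt77, a type II keratin of the suprabasal epidermis (chr15:101858731-101869705), had the widest gap of these keratins, with 1182 FPKM in PRP, 205 in MNs, 2482 in NC and 132 in PRP-MNs, a log2 ratio of 2.52. Basal keratinocyte genes did not share the gap: 0 of 13 were higher in PRP, 1 (Krt15) was higher in MNs, and the median was -0.03. Their summed level was 5987 FPKM in PRP and 5625 in MNs, while that of the differentiation list was 17602 and 6501.

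Genes of the cornified envelope and its assembly were mostly on the PRP side too. Loricrin (Lor, ENSMUSG00000043165, chr3:92080271-92083142), the main protein of the envelope, was at 643 FPKM in PRP, 113 in MNs, 1058 in NC and 61.1 in PRP-MNs. Filaggrin (Flg), which bundles keratin filaments and is broken down into moisture-binding amino acids, had 902 FPKM in PRP and 296 in MNs. Its relatives filaggrin 2 (Flg2) and hornerin (Hrnr) had log2 ratios of 2.57 and 2.38. Involucrin (Ivl), an early envelope protein, was at 112 FPKM in PRP and 59.2 in MNs and stayed just under the threshold at 0.91. Enzymes and junction proteins of cornification had smaller ratios than loricrin. Caspase 14 (Casp14), which cleaves profilaggrin, had 91.6 FPKM in PRP and 30.6 in MNs; desmoglein 1 (Dsg1a), a cadherin of the upper desmosomes, had 229 FPKM in PRP and 84.3 in MNs; and corneodesmosin (Cdsn) had 229 FPKM in PRP and 108 in MNs. The proteases of shedding, Klk5 and Klk7, had log2 ratios of 1.09 and 0.56. The one member of the list with a higher level in MNs was Sprr1a, a small proline-rich envelope protein, at 266 FPKM in PRP, 309 in MNs, 333 in NC and 645 in PRP-MNs.

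Most of these genes lie side by side on chromosome 3, in the epidermal differentiation complex. Windows of 1 Mb were chosen here after the values had been seen. Of 832 windows with at least 6 genes tested, 331 held no gene past the threshold and 4 had 50% or more of their genes higher in PRP. The window from 92 to 93 Mb of chromosome 3 (GRCm38) held 43 genes tested, of which 34 were higher in PRP and 2, Sprr4 and Prr9, in MNs. In the next window, 6 of 9 were higher in PRP, and 1, the inner root sheath gene Tchh, in MNs. Late cornified envelope genes (Lce), a family of small envelope proteins, were all on the PRP side: 21 of 21 measured were past the threshold, with log2 ratios from 1.06 to 2.71. Lce1d was at 196 FPKM in PRP, 30.5 in MNs, 339 in NC and 35.4 in PRP-MNs. Lce1m was at 418 FPKM in PRP, 69.4 in MNs, 880.4 in NC and 56.8 in PRP-MNs. Both were highest in NC, and their levels in MNs and PRP-MNs were close. Lce3a had another order, at 5.58 FPKM in PRP, 0.0975 in MNs, 4.16 in NC and 9.88 in PRP-MNs, and the other Lce3 genes tested were highest in PRP-MNs too. Near-identical copies such as the Lce1 and Sprr2 genes can share reads, so the split of values among them is uncertain. Within the small proline-rich family, 8 of 13 measured were higher in PRP, with Sprr2d at 81.1 FPKM in PRP, 9.35 in MNs, 35.4 in NC and 44.3 in PRP-MNs and a log2 ratio of 2.99.

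The promoters of 2 genes of this window are shown because members of the cluster differed together and some of them carried the same short word close to the start of transcription. Printed are the 160 bases before the start, 5′ to 3′ on the strand of the gene, from RefSeq on GRCm38.p6, with the letters TATAAA in capitals.
Lor (chr3:92083143-92083302, minus strand): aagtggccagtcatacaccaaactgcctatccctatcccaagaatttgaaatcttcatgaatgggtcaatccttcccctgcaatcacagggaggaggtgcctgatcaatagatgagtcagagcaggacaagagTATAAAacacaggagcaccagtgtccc
Lce1d (chr3:92687211-92687370, minus strand): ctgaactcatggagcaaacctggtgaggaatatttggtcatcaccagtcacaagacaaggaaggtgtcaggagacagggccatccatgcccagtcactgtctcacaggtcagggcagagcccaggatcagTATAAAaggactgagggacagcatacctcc
In Lor the word begins at base -27 and in Lce1d at base -30 from the start. TATAAA, searched on both strands from 250 bases before to 50 after the start, was found in 15 of the 35 genes of the window that had a RefSeq promoter (42.9%). Lce1b, with a log2 ratio of 2.57, was among those without a match. It was in 13.6% of all 32851 promoters and in 7.96% of those of the genes tested. A match is a description of the sequence and not a measured site.

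**Figure D2:**
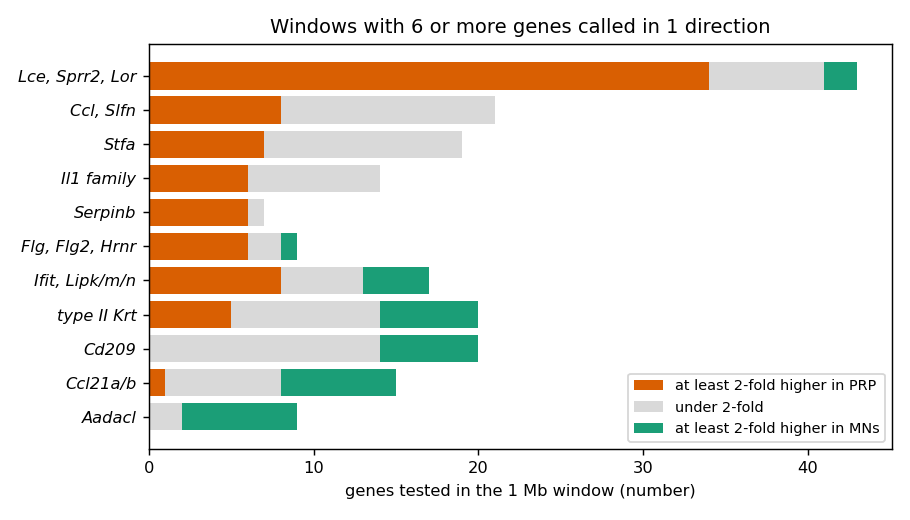
Number of genes tested in the 11 windows of 1 Mb that held 6 or more genes past the threshold in 1 direction, split into genes at least 2-fold higher in PRP, under 2-fold, and at least 2-fold higher in MNs. The window of the Lce, Sprr2 and Lor genes has 34 of 43 genes higher in PRP, and that of the Aadacl genes 7 of 9 higher in MNs.

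Other gene clusters of the epidermis were also on the PRP side. In the window of chromosome 1 from 107 to 108 Mb, 6 of 7 genes were higher in PRP, all of them clade B serpins, inhibitors of proteases inside and around keratinocytes. Serpinb3a had the highest ratio of named genes with 1 table entry, 3.12, from 20.9 FPKM in PRP, 1.52 in MNs, 30.6 in NC and 0.826 in PRP-MNs, though its near copies can share reads. Serpinb2, also known as plasminogen activator inhibitor 2, was at 300.0 FPKM in PRP and 99.1 in MNs. Skint genes, which encode butyrophilin-like proteins of keratinocytes, were higher in PRP in 7 of 11, with Skint9 at 62.3 FPKM in PRP, 9.48 in MNs, 134 in NC and 7.32 in PRP-MNs. Stefins, inhibitors of cysteine proteases, were represented by Stfa1 at 259 FPKM in PRP and 98.3 in MNs. Calcb, which encodes the beta form of the neuropeptide CGRP, was also highest in NC and higher in PRP than in MNs, at 12.3 FPKM in PRP, 0.733 in MNs, 25.3 in NC and 1.57 in PRP-MNs. The lipases Lipm and Lipn, which act in the granular layer, were at 73.4 FPKM in PRP and 18.6 in MNs and at 23.4 FPKM in PRP and 6.81 in MNs, respectively.

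Epidermal cytokines of the interleukin-1 family were on the same side. Il1f6, Il1f8 and Il1f9 are the older symbols of the IL-36 alpha, beta and gamma genes. Il1f6 was at 78.4 FPKM in PRP, 17 in MNs, 157 in NC and 7.15 in PRP-MNs. Il1f9 was at 88.4 FPKM in PRP and 22.4 in MNs, and Il1f8 at 51.7 FPKM in PRP and 19.3 in MNs. All 3 were highest in NC. Interleukin 18 (Il18), stored in keratinocytes, was at 76.4 FPKM in PRP and 22 in MNs, and interleukin 1 alpha (Il1a) at 22.9 FPKM in PRP and 4.17 in MNs, a log2 ratio of 2.21. The receptor antagonist Il1rn had 50.8 FPKM in PRP, 16.4 in MNs, 67.5 in NC and 256 in PRP-MNs, with the highest level in PRP-MNs. Epiregulin (Ereg), a ligand of the EGF receptor, had 61.8 FPKM in PRP, 12 in MNs, 121 in NC and 4.81 in PRP-MNs. It was the one of 11 measured genes of EGF ligands and receptors past the threshold.

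Interferon-stimulated genes formed a second group on the PRP side. Type I and type III interferons switch these antiviral genes on. All 24 genes of the list were measured, all 24 were higher in PRP than in MNs in sign, and 16 passed the 2-fold threshold. The median of the list was 1.30. Irf7 (ENSMUSG00000025498, chr7:141262706-141266481), the transcription factor that amplifies interferon production, was at 111 FPKM in PRP, 16.8 in MNs, 9.98 in NC and 320.3 in PRP-MNs. Isg15, a ubiquitin-like modifier, was at 67.5 FPKM in PRP, 17.8 in MNs, 4.77 in NC and 427 in PRP-MNs. Ifit3, which belongs to a family that binds foreign RNA, was at 54 FPKM in PRP, 12.9 in MNs, 3.53 in NC and 273 in PRP-MNs. In each of the 3 genes the order was NC, MNs, PRP and then PRP-MNs, and in all 24 the highest level was in PRP-MNs and the lowest in NC. Mx1, a GTPase that blocks viruses, was at 11.3 FPKM in PRP and 2.29 in MNs, and Rsad2 (viperin) at 10.5 FPKM in PRP and 2.36 in MNs. Sensors of viral RNA had smaller ratios: Ddx58, which encodes RIG-I, had 10.7 FPKM in PRP and 8.23 in MNs, a log2 ratio of 0.34, and Ifih1 had a log2 ratio of 0.58. The summed level of the list was 592 FPKM in PRP, 211 in MNs, 72.8 in NC and 2744 in PRP-MNs. Ifit3 and its copy Ifit3b can share reads, and their values may be uncertain.

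Promoters of 3 of these genes are shown because many genes of the group carry a sequence word known from interferon response elements. The 160 bases before the start are printed as above, and capitals mark GAAANNGAAA or its reverse complement TTTCNNTTTC, with overlapping matches joined.
Isg15 (chr4:156200819-156200978, minus strand): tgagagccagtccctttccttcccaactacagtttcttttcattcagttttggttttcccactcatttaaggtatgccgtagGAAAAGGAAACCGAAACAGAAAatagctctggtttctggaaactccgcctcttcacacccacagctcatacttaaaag
Ifit3 (chr19:34583369-34583528, plus strand): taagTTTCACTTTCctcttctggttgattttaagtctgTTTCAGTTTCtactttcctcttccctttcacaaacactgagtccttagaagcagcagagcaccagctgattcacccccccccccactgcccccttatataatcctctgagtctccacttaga
Rsad2 (chr12:26456453-26456612, minus strand): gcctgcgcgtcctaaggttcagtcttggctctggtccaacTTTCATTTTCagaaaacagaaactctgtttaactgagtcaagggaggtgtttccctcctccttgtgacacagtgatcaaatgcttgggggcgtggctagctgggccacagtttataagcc
Isg15 holds 3 overlapping matches, starting at bases -78, -72 and -66. Ifit3 holds 2, at -156 and -122, and Rsad2 holds 1, at -120. Of the 24 genes, 18 had a RefSeq promoter and 11 of these a match, in 57.9% of their 19 promoters. The word was in 3.44% of all promoters and in 3.18% of those of genes tested. None of the 35 matched genes in the chromosome 3 window held it.

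Genes induced mainly by interferon gamma differed less. Of 14 such genes, 13 had the higher level in PRP but 1, the chemokine Cxcl9, passed the threshold, and the median was 0.67. With a pseudocount of 0.1, or with the ratios centred on the median of all genes, 3 passed it. Gbp3, a guanylate-binding protein, was at 14.4 FPKM in PRP and 6.98 in MNs, and Irgm1, an immunity-related GTPase, at 26.3 FPKM in PRP and 13.9 in MNs. Antigen presentation genes lay closer still to equality, with 1 of 17 higher in PRP and a median of 0.26. The exception was Nlrc5, the transactivator of class I genes, at 14.2 FPKM in PRP, 5.68 in MNs, 20.5 in NC and 14.7 in PRP-MNs. The class I chain H2-K1 was at 521 FPKM in PRP and 435 in MNs, and the class II chain H2-Aa at 184 FPKM in PRP and 149 in MNs.

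Single genes of monocytes and macrophages stood on either side. Ly6c2, which marks inflammatory monocytes, was at 125 FPKM in PRP, 21.6 in MNs, 2.81 in NC and 651 in PRP-MNs, a log2 ratio of 2.49; its copy Ly6c1 can share reads with it. Slfn4 and Ms4a4c, both found in monocytes, had the same order: Slfn4 was at 49.3 FPKM in PRP, 10.2 in MNs, 0.861 in NC and 663 in PRP-MNs, and Ms4a4c at 51.3 FPKM in PRP, 10.6 in MNs, 0.503 in NC and 231 in PRP-MNs. By contrast, Mrc1 and Cd163, markers of resident macrophages, were higher in MNs. The mannose receptor Mrc1 was at 21.6 FPKM in PRP, 131 in MNs, 9.63 in NC and 62.4 in PRP-MNs. Cd163, the scavenger receptor for haemoglobin, was at 8.12 FPKM in PRP, 38.3 in MNs, 6.03 in NC and 10.6 in PRP-MNs. Gpnmb, a lysosomal glycoprotein of lipid-laden macrophages, had 10.02 FPKM in PRP and 38.3 in MNs. Genes shared by most macrophages differed little, with Cd68 at 79.7 FPKM in PRP and 103 in MNs, Adgre1 at 24.4 FPKM in PRP and 35.2 in MNs and C1qb at 138 FPKM in PRP and 173 in MNs. In the whole list of 16 macrophage and monocyte markers, 1 was higher in PRP, 2 were higher in MNs and the median was -0.35. These counts are near the 4.62% and 5.99% of all genes tested, and no split of the list is read from them. Slfn4, Ms4a4c and Gpnmb are not in that list but in one of macrophage activation states. There 2 of 18 measured genes were higher in PRP and 4 in MNs.

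Chemokines, the proteins that attract leukocytes, went both ways. Of 30 in the list, 27 were measured, 7 of them higher in PRP and 5 in MNs. On the PRP side stood Ccl5, which draws T cells and monocytes, at 9.79 FPKM in PRP, 0.759 in MNs, 0.672 in NC and 14 in PRP-MNs; the B cell chemokine Cxcl13, at 62.9 FPKM in PRP, 16 in MNs, 6.45 in NC and 10.1 in PRP-MNs; and the interferon-induced Cxcl10, at 12.8 FPKM in PRP, 4.59 in MNs, 1.91 in NC and 303 in PRP-MNs. On the MNs side stood the neutrophil chemokines Cxcl5 and Cxcl1. Cxcl5 (ENSMUSG00000029371, chr5:90759360-90761624) had the lowest log2 ratio of named genes with 1 table entry, -3.74. It was at 1.74 FPKM in PRP, 35.6 in MNs, 0 in NC and 244 in PRP-MNs. Cxcl1 was at 2.04 FPKM in PRP, 34.7 in MNs, 2.44 in NC and 45.5 in PRP-MNs. Both were higher still in PRP-MNs, and at or below 2.44 FPKM in NC and PRP. Cxcl2, which binds the same receptor as both, had the opposite direction, with 6.43 FPKM in PRP, 2.36 in MNs, 2.93 in NC and 305 in PRP-MNs. The stromal chemokine Cxcl12 was at 53 FPKM in PRP and 156 in MNs, and the lymphatic chemokine Ccl21a at 15.5 FPKM in PRP and 78.2 in MNs. Ccl2, the main monocyte chemokine, was at 20.8 FPKM in PRP, 60.7 in MNs, 3.04 in NC and 350.5 in PRP-MNs. The receptor of the neutrophil chemokines, Cxcr2, was at 13.3 FPKM in PRP and 11.5 in MNs, and the neutrophil list had 2 of 9 measured members higher in PRP and 1 in MNs. Those 2 were S100a8 and S100a9, which keratinocytes make as well. They were at 107 FPKM in PRP and 41.1 in MNs and at 269.7 FPKM in PRP and 106 in MNs, respectively. The member past the threshold in MNs was Mmp8, at 0.423 FPKM in PRP and 2.51 in MNs. In sign, 5 of the 9 were higher in PRP and 4 in MNs. Clec4d and Csf3r were among the latter, with log2 ratios of -0.65 and -0.61.

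Among inflammatory cytokines, 5 of 15 measured were higher in each library. The members higher in PRP were the epidermal ones given above. Those higher in MNs were led by interleukin 6 (Il6), at 1.14 FPKM in PRP, 24.9 in MNs, 0.258 in NC and 18.6 in PRP-MNs. Il24, a cytokine of wound keratinocytes, was at 0.336 FPKM in PRP, 8.12 in MNs, 0.13 in NC and 15 in PRP-MNs. Lif, which signals through the same receptor subunit as interleukin 6, was at 0.136 FPKM in PRP and 2.71 in MNs, and Il19 at 1.86 FPKM in PRP and 8.01 in MNs. Il1b, the secreted interleukin 1 of myeloid cells, was at 20.8 FPKM in PRP, 52.5 in MNs, 9.94 in NC and 539 in PRP-MNs. Il6 and Il24 were low in NC and PRP and high in the MNs and PRP-MNs libraries, while Il1b was by far highest in PRP-MNs.

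Skeletal muscle genes made up the third group on the PRP side. All 20 genes of the list had the higher level in PRP, 14 of them past the 2-fold threshold, and the median was 1.02. Titin (Ttn, ENSMUSG00000051747, chr2:76703980-76982547), the molecular spring of the sarcomere, was at 29.2 FPKM in PRP, 6.79 in MNs, 10.4 in NC and 15.1 in PRP-MNs. Alpha-actinin 2 (Actn2), which anchors thin filaments, was at 525 FPKM in PRP, 166 in MNs, 155 in NC and 112 in PRP-MNs. Muscle creatine kinase (Ckm) had 1021 FPKM in PRP and 502 in MNs, and the fast myosin heavy chain Myh4 had 554 FPKM in PRP and 256 in MNs. The oxidative fast myosin Myh2 did not share the gap, at 72.3 FPKM in PRP and 68.7 in MNs. Small heat shock genes known from muscle were on the same side, with Hspb7 at 429.9 FPKM in PRP, 94.2 in MNs, 93.5 in NC and 196 in PRP-MNs and Hspb6 at 783 FPKM in PRP, 231 in MNs, 252 in NC and 214 in PRP-MNs. The summed level of the list was 19299 FPKM in PRP, 10176 in MNs, 10954 in NC and 13992 in PRP-MNs, so PRP stood above the other 3 libraries. With both libraries brought to equal sums without mitochondrial genes, 9 in place of 14 muscle genes passed the threshold, since several lay just past it. How far the amount of muscle in the samples bears on other differences was not tested.

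The sebaceous gland had the largest median gap of the lists with all members measured, in favour of MNs. All 15 genes were measured, 13 were at least 2-fold higher in MNs, and the median was -2.26. The wax synthesis enzymes came first. Far2 (ENSMUSG00000030303, chr6:148047259-148182758), a fatty acyl-CoA reductase that makes fatty alcohols, was at 21.9 FPKM in PRP, 249 in MNs, 22.5 in NC and 1.23 in PRP-MNs. Awat1, an acyltransferase that joins these alcohols into wax esters, was at 10.2 FPKM in PRP, 112 in MNs, 10.03 in NC and 1.68 in PRP-MNs. Its relative Awat2 was at 1.68 FPKM in PRP, 22.2 in MNs, 2.2 in NC and 0.252 in PRP-MNs. Elovl3, which elongates fatty acids in the gland, was at 25.6 FPKM in PRP, 244 in MNs, 24.3 in NC and 1.99 in PRP-MNs. Cidea, a lipid droplet protein, was at 6.8 FPKM in PRP, 71.7 in MNs, 9.73 in NC and 1.87 in PRP-MNs. In these genes PRP and NC were nearly level, MNs stood far higher, and PRP-MNs was lowest. The stearoyl-CoA desaturase Scd1 was at 420.0 FPKM in PRP, 1121 in MNs, 333 in NC and 335 in PRP-MNs, and Pparg, the transcription factor of sebocytes and adipocytes, at 11.8 FPKM in PRP and 28.1 in MNs. Summed over the list, the level was 940.5 FPKM in PRP, 3276 in MNs, 835 in NC and 790.3 in PRP-MNs.

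Other enzymes of lipid synthesis were among the genes highest in MNs. Fa2h, the fatty acid 2-hydroxylase, was at 17.2 FPKM in PRP, 228 in MNs, 21.9 in NC and 2.1 in PRP-MNs, a log2 ratio of -3.66. Elovl6, which elongates palmitate, was at 31.8 FPKM in PRP, 302 in MNs, 44.7 in NC and 8.53 in PRP-MNs. The cholesterol pathway as a list differed far less than Fa2h and Elovl6: 6 of its 20 genes were higher in MNs and none in PRP, with a median of -0.55. Lanosterol synthase (Lss) was at 8.55 FPKM in PRP and 23.7 in MNs, and squalene epoxidase (Sqle) at 54.8 FPKM in PRP and 61.8 in MNs. Of 18 genes of fatty acid synthesis and oxidation, 5 were higher in MNs and none in PRP. These 5 were Elovl6, Scd1, Fasn, Acly and Acacb. Fatty acid synthase (Fasn) was at 46.5 FPKM in PRP and 116 in MNs. Of all 18 genes, 14 had the lower level in PRP, and genes of synthesis and of oxidation were both among these. The 4 with the higher level in PRP included the oxidation genes Acadm and Cpt1b, with log2 ratios of 0.38 and 0.63. Further genes with the pattern of the wax enzymes were Aadacl4, an arylacetamide deacetylase-like enzyme, at 13.1 FPKM in PRP, 137 in MNs, 13.5 in NC and 1.87 in PRP-MNs, Hsd3b6, a hydroxysteroid dehydrogenase, at 0.944 FPKM in PRP, 15.7 in MNs, 1.1 in NC and 0.161 in PRP-MNs, and Pctp, a phosphatidylcholine transfer protein, at 4.67 FPKM in PRP, 48.3 in MNs, 5.12 in NC and 3.02 in PRP-MNs. Around Aadacl4, 7 of the 9 genes tested from 144 to 145 Mb of chromosome 4 were higher in MNs. Dermal fat leaned the same way by less: 10 of 12 adipocyte genes had the lower level in PRP, with a median of -0.37. Past the threshold in MNs were 2 of the 12, Pparg and leptin (Lep). Adiponectin (Adipoq) was level at 58.3 FPKM in PRP and 58.5 in MNs.

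**Figure D3:**
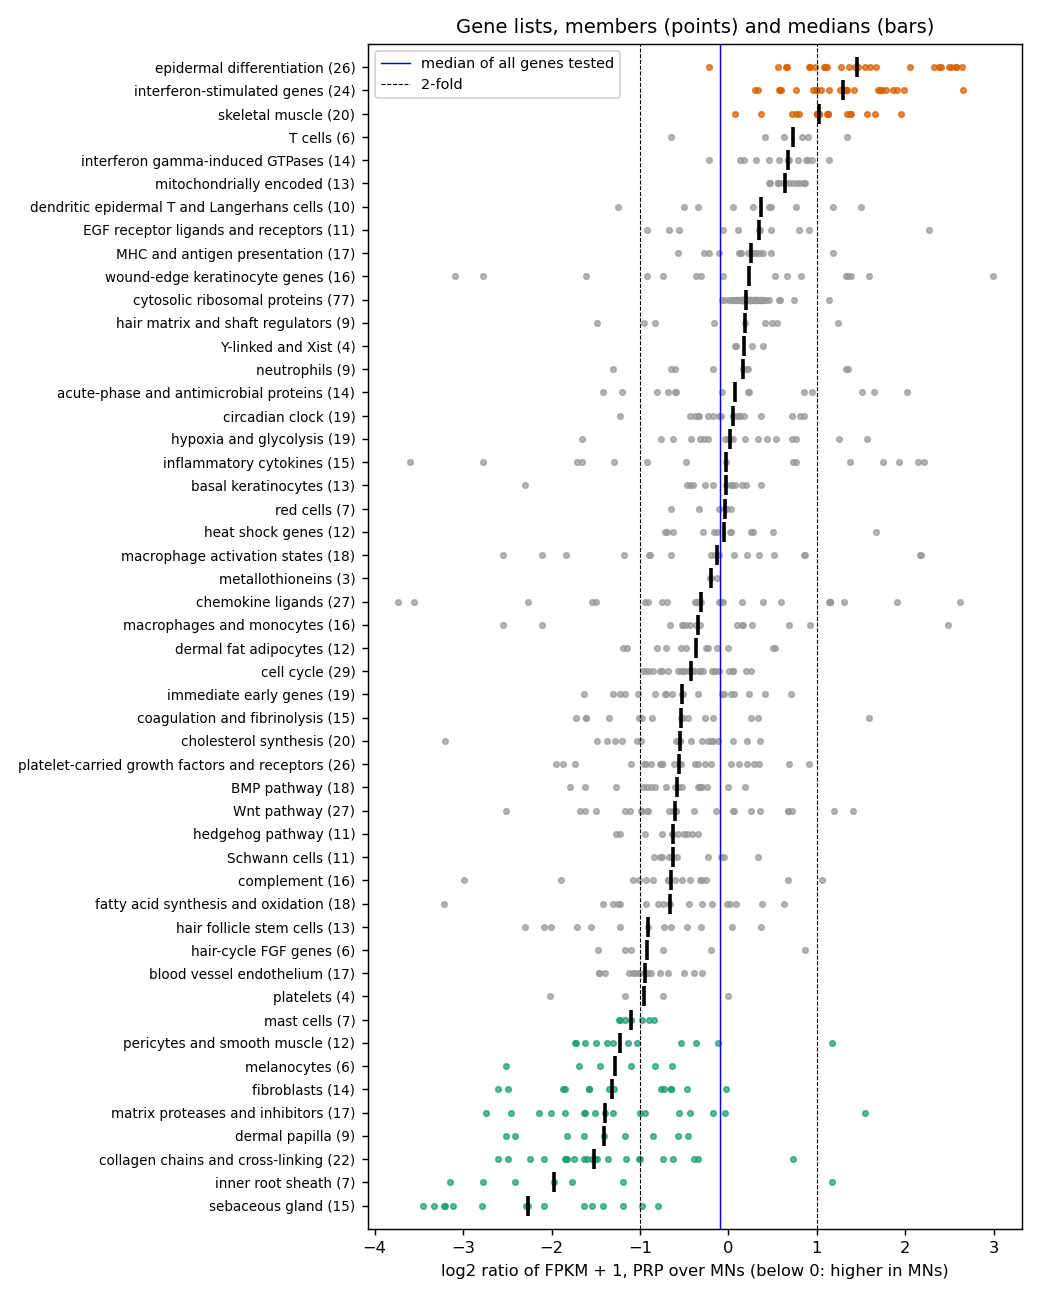
Log2 ratio of FPKM + 1, PRP over MNs, for the measured members (points) of each gene list with 3 or more, with the number of members in brackets and the median as a black bar. The blue line marks the median of all genes tested (-0.10) and the dashed lines a 2-fold difference; epidermal differentiation, interferon-stimulated and skeletal muscle genes have medians above 1, and 9 lists from mast cells to sebaceous gland have medians below -1.

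Hair follicle genes were higher in MNs in several compartments, at low levels in most. Stem cells of the follicle rest in the bulge and express Krt15, Cd34, Lgr5, Lhx2 and Sox9. Of the 13 genes of that list, 6 were higher in MNs and none in PRP, with a median of -0.91. Krt15 was at 63 FPKM in PRP, 313 in MNs, 78.3 in NC and 12.6 in PRP-MNs. The stem cell receptor Lgr5 was at 0.679 FPKM in PRP, 6.1 in MNs, 0.27 in NC and 0.629 in PRP-MNs. The transcription factors Lhx2 and Sox9 were at 0.787 FPKM in PRP and 6.17 in MNs and at 1.72 FPKM in PRP and 7.93 in MNs. Lrig1, a marker of the junctional zone above the bulge, was at 9.7 FPKM in PRP and 30.5 in MNs. Krt79, of the duct and infundibulum, had 77.1 FPKM in PRP, 565 in MNs, 101 in NC and 10.6 in PRP-MNs; it was picked after its value was seen. The list members shared with basal epidermis did not follow, with Itga6 at 64.7 FPKM in PRP and 62.7 in MNs and Col17a1 at 120.5 FPKM in PRP and 93.1 in MNs.

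Growing follicles make an inner root sheath, which has keratins of its own. Of 11 genes of the sheath in the table, 7 reached the filter and 6 of these were higher in MNs. Krt71 was at 0.185 FPKM in PRP, 9.52 in MNs, 2.15 in NC and 0 in PRP-MNs. Krt25 was at 0.0278 FPKM in PRP, 6.06 in MNs, 1.04 in NC and 0 in PRP-MNs, and Krt27 at 0 FPKM in PRP, 4.33 in MNs, 1.31 in NC and 0.0545 in PRP-MNs. All 3 keratins were lowest in PRP or PRP-MNs, intermediate in NC and highest in MNs, where they stayed below 10 FPKM. The seventh gene, Gata3, is also expressed in the epidermis and had 25.3 FPKM in PRP and 10.7 in MNs. Because a gene near the filter enters through the library where it is high, the median over all 11 was also taken and was -1.19. Keratins of the hair shaft did not reach the filter in either library except Krt84, at 2.49 FPKM in PRP, 0.227 in MNs, 5.47 in NC and 0.443 in PRP-MNs. Regulators of the hair matrix had 1 of 9 measured higher in each library: Dlx3 was at 8.26 FPKM in PRP and 2.92 in MNs and Gsdma3 at 0.473 FPKM in PRP and 3.14 in MNs. Pigment genes followed the sheath, with dopachrome tautomerase (Dct) at 0.749 FPKM in PRP, 8.98 in MNs, 1.04 in NC and 0.349 in PRP-MNs and Tyrp1 at 0.0462 FPKM in PRP, 2.37 in MNs, 0.0607 in NC and 0.0214 in PRP-MNs. Both reached the filter through MNs alone, and the median over all 9 melanocyte genes, without the filter, was -0.83.

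The dermal papilla, the cluster of fibroblasts that instructs the follicle, had 6 of 9 measured genes higher in MNs and none in PRP. Without the filter the median over its 15 genes was -0.60. Wif1, a secreted Wnt inhibitor, was at 0.555 FPKM in PRP, 7.88 in MNs, 0.389 in NC and 0.205 in PRP-MNs, and Crabp1, a retinoic acid-binding protein, at 11.1 FPKM in PRP, 63.3 in MNs, 7.47 in NC and 23 in PRP-MNs. Alkaline phosphatase (Alpl), a classical papilla marker, was at 1.3 FPKM in PRP, 5.88 in MNs, 0.576 in NC and 3.2 in PRP-MNs.

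**Figure D4:**
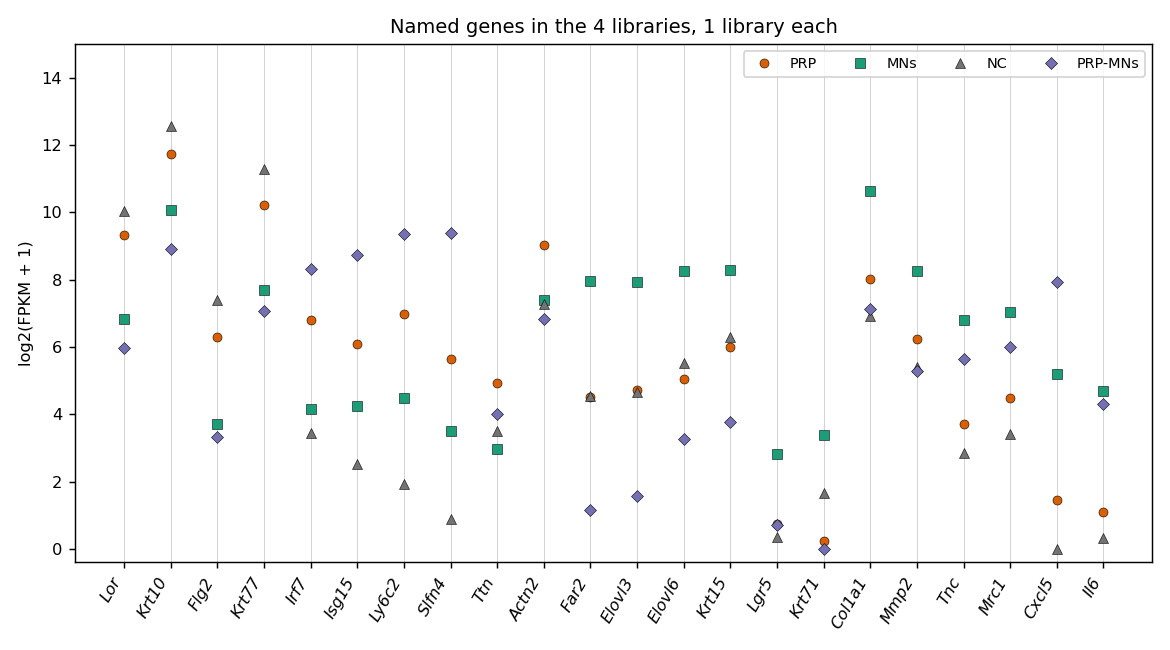
Level of 22 named genes in the 4 libraries as log2 of FPKM + 1, 1 symbol per library. Differentiation genes (Lor to Krt77) are higher in PRP than in MNs and highest in NC; Irf7 to Slfn4 are highest in PRP-MNs; and lipid, follicle and matrix genes (Far2 to Tnc) and the macrophage receptor Mrc1 are highest in MNs.

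Collagen and its processing enzymes were higher in MNs. Of 22 genes, 17 were at least 2-fold higher in MNs and none in PRP, with a median of -1.52. The chains of type I collagen, the main fibre of the dermis, came first: Col1a1 (ENSMUSG00000001506, chr11:94936224-94953042) was at 259 FPKM in PRP, 1589 in MNs, 120.3 in NC and 139 in PRP-MNs, and Col1a2 at 319 FPKM in PRP, 1796 in MNs, 156 in NC and 133 in PRP-MNs. Col3a1, the chain of type III collagen, was at 552 FPKM in PRP, 1983 in MNs, 226 in NC and 289.6 in PRP-MNs. MNs stood highest of the 4 libraries in each. Basement membrane collagen of vessels and epithelia was on the same side, but as high in PRP-MNs, with Col4a1 at 32.8 FPKM in PRP, 101 in MNs, 8.79 in NC and 108 in PRP-MNs. Cross-linking and folding genes differed less: Loxl1 was at 21.8 FPKM in PRP and 57.6 in MNs, Serpinh1, the collagen chaperone, at 129 FPKM in PRP and 290.4 in MNs, and Lox at 34.3 FPKM in PRP and 53.6 in MNs. The single member with a positive ratio was Col7a1, the anchoring fibril collagen made largely by keratinocytes, at 7.28 FPKM in PRP and 3.97 in MNs. Summed over the list, the level was 1596 FPKM in PRP, 6593 in MNs, 705 in NC and 1319 in PRP-MNs.

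Fibroblast markers were on the same side. All 14 genes of that list, 3 of them type I and III collagens, had the lower level in PRP, 8 were past the threshold, and the median was -1.32. Decorin (Dcn), a small proteoglycan bound to collagen, was at 584 FPKM in PRP, 1484 in MNs, 311 in NC and 316 in PRP-MNs. The PDGF receptor Pdgfra was at 15.6 FPKM in PRP, 59.8 in MNs, 4.75 in NC and 45.6 in PRP-MNs. Mfap5 and Pi16, of the fibroblasts around vessels and fascia, were at 21.5 FPKM in PRP and 22 in MNs and at 42.6 FPKM in PRP and 67.6 in MNs. Tenascin C (Tnc), a matrix protein of wounds, was at 12.2 FPKM in PRP, 112 in MNs, 6.17 in NC and 48.9 in PRP-MNs, a log2 ratio of -3.09. Coch, which encodes cochlin, a secreted matrix protein, had 6.11 FPKM in PRP, 83.1 in MNs, 1.97 in NC and 0.956 in PRP-MNs. Tnc was high in MNs and PRP-MNs, whereas Coch was high in MNs alone.

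Matrix proteases and their inhibitors were on the same side in most members: 10 of 17 measured were higher in MNs and 1 in PRP, with a median of -1.40. The gelatinase Mmp2 was at 74.4 FPKM in PRP, 303 in MNs, 41 in NC and 38.1 in PRP-MNs, and its membrane-bound activator Mmp14 at 43.3 FPKM in PRP, 194 in MNs, 26.1 in NC and 79.4 in PRP-MNs. Stromelysin 1 (Mmp3) was at 71.9 FPKM in PRP and 225 in MNs, and Adamts4, an aggrecanase, at 0.919 FPKM in PRP, 9.54 in MNs, 0.0817 in NC and 22.9 in PRP-MNs. The member higher in PRP was the collagenase Mmp13, at 5.99 FPKM in PRP, 1.4 in MNs, 5.75 in NC and 49.1 in PRP-MNs. The inhibitor Timp1, an early wound gene, was level at 72 FPKM in PRP, 74.2 in MNs, 3.89 in NC and 139.6 in PRP-MNs, while Timp2 was at 61.3 FPKM in PRP and 190.5 in MNs.

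Vessels and their supporting cells were on the MNs side with moderate ratios. All 17 endothelial genes had the lower level in PRP, and 8 were past the threshold, with a median of -0.94. Pecam1, an adhesion protein of endothelium, was at 21.9 FPKM in PRP, 46.5 in MNs, 6.83 in NC and 79.1 in PRP-MNs. Plvap, of fenestrated capillaries, was at 21.4 FPKM in PRP, 60.7 in MNs, 6.63 in NC and 54 in PRP-MNs, and von Willebrand factor (Vwf) at 1.78 FPKM in PRP, 6.69 in MNs, 0.824 in NC and 3.45 in PRP-MNs. Several endothelial genes lay close to the threshold: with the ratios centred on the median of all genes, 4 of 17 passed it. Among 12 genes of pericytes and smooth muscle, 8 were higher in MNs, with Acta2, smooth muscle actin, at 50.8 FPKM in PRP and 146 in MNs and Pdgfrb at 7.41 FPKM in PRP and 27.1 in MNs. The one higher in PRP was desmin (Des), which is also a major protein of skeletal muscle, at 618 FPKM in PRP and 274 in MNs. Mast cell genes were higher in MNs in 4 of 7 measured, with the chymase Mcpt4 at 24.6 FPKM in PRP, 56.6 in MNs, 12.8 in NC and 10.8 in PRP-MNs. Schwann cell genes passed the threshold in 0 of 11 in either direction, and in 4 of 11 in MNs with a pseudocount of 0.1, with a median of -0.62.

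**Figure D5:**
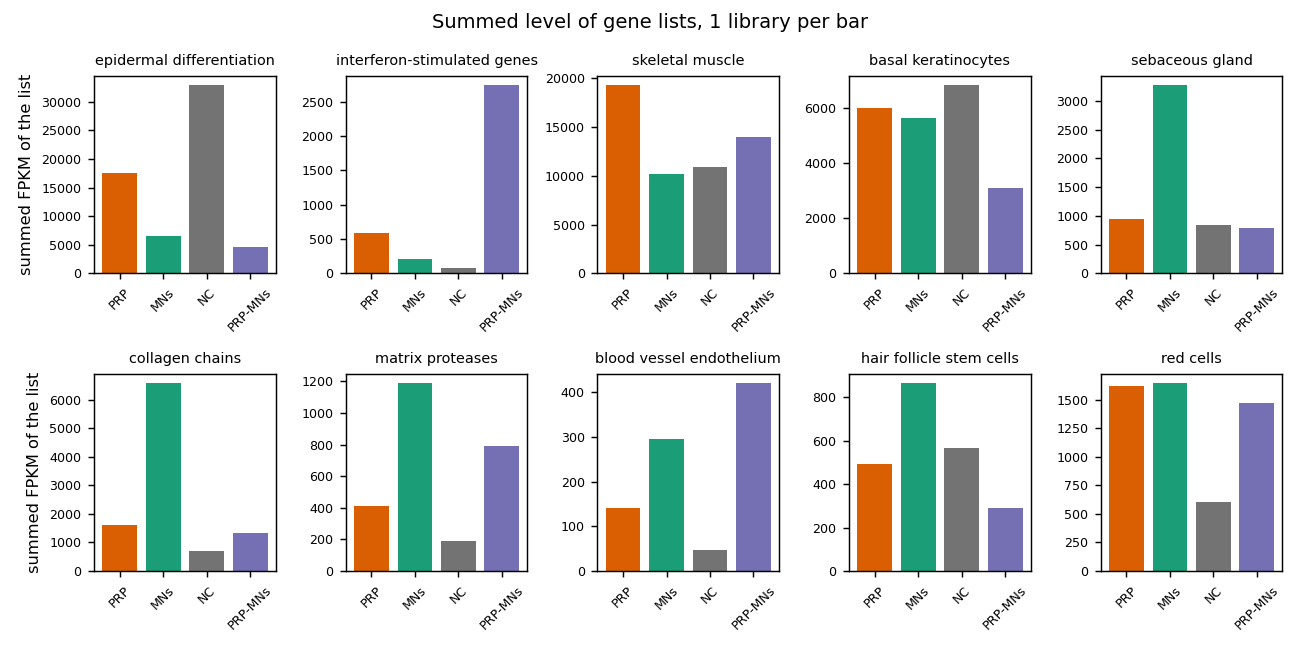
Summed FPKM of 10 gene lists, 1 bar per library and 1 panel per list, each with its own vertical axis from 0. PRP exceeds MNs for epidermal differentiation (17602 against 6501), interferon-stimulated genes (592 against 211) and skeletal muscle (19299 against 10176), and MNs exceeds PRP for sebaceous gland (3276 against 940.5) and collagen (6593 against 1596).

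Markers of stroma, sebaceous gland and follicle thus stood higher in MNs in the same pair of libraries in which muscle and differentiated epidermis stood higher in PRP. Their part in the differences of single genes was not tested, and the makeup of the 2 pieces of skin and the treatments cannot be told apart.

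Platelets carry growth factors that act on skin, and transcripts of these factors and their receptors were in both libraries. In PRP 0 of 26 passed the threshold upwards, against 4.62% of all genes tested, and 1 did with the ratios centred on the median of all genes. A count of 0 in 26 is near that background. In MNs 4 were higher: Hgf, Fgfr1, Pdgfra and Pdgfrb. Pdgfa was at 8.38 FPKM in PRP, 6.68 in MNs, 5.27 in NC and 11.8 in PRP-MNs, and Pdgfb at 7.37 FPKM in PRP, 6.7 in MNs, 7.01 in NC and 9.94 in PRP-MNs. Vegfa, the main vascular growth factor, was at 12.3 FPKM in PRP, 10.4 in MNs, 6.45 in NC and 12.6 in PRP-MNs. Tgfb1 was at 17.6 FPKM in PRP, 35 in MNs, 10.1 in NC and 51.3 in PRP-MNs, with a log2 ratio of -0.95. Tgfb2 was at 2.77 FPKM in PRP and 6.2 in MNs, and Igf1 at 11.7 FPKM in PRP, 18.5 in MNs, 5.29 in NC and 9.97 in PRP-MNs. Hgf, a mesenchymal factor that acts on epithelia, was at 0.735 FPKM in PRP, 5.7 in MNs, 0.198 in NC and 1.81 in PRP-MNs. These are transcript levels in skin, and proteins brought with plasma are not measured by them. Platelet transcripts themselves were not higher in PRP. Of 10 platelet genes 4 reached the filter. Pf4, which macrophages also express, was at 70.9 FPKM in PRP, 161 in MNs, 21.7 in NC and 236 in PRP-MNs, Ppbp at 0.738 FPKM in PRP, 6.06 in MNs, 0.315 in NC and 56.1 in PRP-MNs, Itgb3 at 1.68 FPKM in PRP and 3.47 in MNs, and Itga2b at 2.72 FPKM in PRP and 2.72 in MNs. The defining platelet genes Gp1ba, Gp9, Gp6, Treml1, Tubb1 and Clec1b stayed below 1 FPKM in both libraries.

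Wnt pathway genes stood on both sides. Wnt ligands signal through Frizzled receptors and beta-catenin (Ctnnb1) and start follicle growth. Of 27 genes measured, 2 were higher in PRP and 6 in MNs. The 2 were ligands made in the epidermis, Wnt7b at 15.2 FPKM in PRP, 5.13 in MNs, 26.3 in NC and 2.11 in PRP-MNs and Wnt3 at 13.4 FPKM in PRP, 5.28 in MNs, 21.8 in NC and 3.001 in PRP-MNs. Those in MNs were the receptors Fzd1 and Fzd2 and the inhibitors Wif1, Dkk2, Dkk3 and Sfrp1. Fzd1 was at 9.59 FPKM in PRP, 32.8 in MNs, 7.38 in NC and 9.86 in PRP-MNs, and Dkk3 at 4.78 FPKM in PRP, 15.3 in MNs, 5.97 in NC and 1.7 in PRP-MNs. Beta-catenin itself was at 105 FPKM in PRP, 167 in MNs, 127 in NC and 111 in PRP-MNs. Its partner Lef1 was at 0.257 FPKM in PRP and 0.695 in MNs, and the ligands Wnt3a and Wnt10b were at 2.64 FPKM in PRP and 2.04 in MNs and at 0.579 FPKM in PRP and 0.881 in MNs. Axin2, a target gene of the pathway, was at 4.17 FPKM in PRP and 5.74 in MNs, a log2 ratio of -0.38.

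Hedgehog, BMP and FGF genes leaned towards MNs. Sonic hedgehog (Shh), which drives growth of the follicle, was listed at 0 in PRP and in NC, at 0.131 FPKM in MNs and at 2.28 FPKM in PRP-MNs. It lay below the filter of 1 FPKM in both PRP and MNs, so its level was not compared. All 11 measured hedgehog pathway genes had the lower level in PRP, with 2 past the threshold, the co-receptors Boc and Gas1, and a median of -0.62. The receptor Ptch1 was at 2.76 FPKM in PRP and 4.6 in MNs, and the target Gli1 at 0.823 FPKM in PRP and 2.07 in MNs. In the BMP pathway, which holds follicle stem cells at rest, 3 of 18 were higher in MNs: the antagonists Grem1 and Fst, at 4.31 FPKM in PRP, 17.3 in MNs, 2.47 in NC and 1.18 in PRP-MNs and 8.86 FPKM in PRP, 29.3 in MNs, 5.49 in NC and 27.1 in PRP-MNs, and the target Id3 at 22.3 FPKM in PRP and 55.2 in MNs. Bmp4 was at 3.98 FPKM in PRP and 5.34 in MNs, and its antagonist Nog at 0.655 FPKM in PRP and 2.04 in MNs. Fgf7, keratinocyte growth factor from the dermis, was at 6.76 FPKM in PRP, 20.5 in MNs, 2.72 in NC and 10.9 in PRP-MNs, and Fgf10 at 0.707 FPKM in PRP and 2.83 in MNs. Fgf5, which ends the growth phase, was at 0.112 FPKM in PRP and 0.233 in MNs.

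Proliferation genes leaned towards MNs by less than 2-fold. Of 29 cell cycle genes 24 had the lower level in PRP, none passed the threshold in either direction, and the median was -0.42. With a pseudocount of 0.1, 3 passed it in MNs, and with equal sums without mitochondrial genes 2 did. Mki67, expressed in dividing cells, was at 12.1 FPKM in PRP, 17.5 in MNs, 17.4 in NC and 8.58 in PRP-MNs, and Top2a, needed to separate chromosomes, at 14.4 FPKM in PRP and 25.5 in MNs. Immediate early genes, which respond within minutes to stress or handling, were higher in MNs in 5 of 19. These were Nr4a1, Egr1, Fosb, Nr4a2 and Fosl2, with Nr4a1 at 34.1 FPKM in PRP, 108 in MNs, 76 in NC and 27.3 in PRP-MNs and Egr1 at 23.3 FPKM in PRP, 58.9 in MNs, 31.3 in NC and 25.6 in PRP-MNs. Fos and Jun were at 29.2 FPKM in PRP and 37.4 in MNs and at 34 FPKM in PRP and 33.3 in MNs. Among 12 heat shock genes only Hspb1 passed the threshold, at 347 FPKM in PRP and 109 in MNs.

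Wound-edge keratinocyte genes were mixed, with 5 of 16 measured higher in PRP and 3 in MNs. The keratins of activated epidermis stayed under the threshold, with Krt6a at 923 FPKM in PRP and 1187 in MNs, Krt16 at 1184 FPKM in PRP and 671 in MNs and Krt17 at 443 FPKM in PRP and 551 in MNs. The urokinase receptor Plaur was at 6.21 FPKM in PRP, 21 in MNs, 2.78 in NC and 110.2 in PRP-MNs. Among coagulation and fibrinolysis genes 5 of 15 measured were higher in MNs and 1, Serpinb2, in PRP. Thrombospondin 1 (Thbs1) was at 28.7 FPKM in PRP, 96.8 in MNs, 27.6 in NC and 477 in PRP-MNs. Of 16 complement genes 4 were higher in MNs and 1 in PRP. Masp1, a protease of the lectin pathway, was at 4.32 FPKM in PRP, 41.2 in MNs, 3.33 in NC and 5.48 in PRP-MNs, and C4b at 22.4 FPKM in PRP and 85.9 in MNs, whereas factor B (Cfb) was at 94.6 FPKM in PRP, 44.8 in MNs, 5.91 in NC and 106 in PRP-MNs. Acute-phase genes had 3 of 14 measured higher in PRP and 2 in MNs. The 3 were Orm1, at 170.5 FPKM in PRP, 41.4 in MNs, 354 in NC and 32.5 in PRP-MNs, and Saa2 and Saa1, with log2 ratios of 1.64 and 1.51. Saa3 stayed under the threshold, at 501 FPKM in PRP, 277 in MNs, 4.4 in NC and 86.2 in PRP-MNs.

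Counts for lists of basic metabolism are given beside the 10.6% of all genes tested that lay past the threshold in either direction. All 13 genes of the mitochondrial genome had the higher level in PRP, with none past the threshold and log2 ratios from 0.46 to 0.86. Cytosolic ribosomal protein genes had a median of 0.20, with 75 of 77 positive and 1, Rps27, past the threshold at 274 FPKM in PRP and 124 in MNs. In the clock list 1 of 19 genes passed the threshold, Nfil3 at 5.5 FPKM in PRP and 14.2 in MNs, and the median was 0.05. Hypoxia and glycolysis genes had 2 of 19 higher in PRP and 1 in MNs. The counts of the clock list and of this list are near the share of all genes, and nothing is read from them. Bnip3, a mitophagy receptor, was at 88.1 FPKM in PRP, 29.1 in MNs, 37.4 in NC and 35.4 in PRP-MNs, and adrenomedullin (Adm), a vasodilator peptide, at 6.65 FPKM in PRP, 23.1 in MNs, 2.22 in NC and 20.6 in PRP-MNs.

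The NC library, which did not enter the choice of genes, lay nearer to PRP than to MNs for most of them. On the log2 scale of FPKM + 1, NC was closer to PRP in 776 of the 829 genes higher in MNs (93.6%) and in 409 of the 640 genes higher in PRP (63.9%), against 70.1% of all genes tested. In the sebaceous, collagen, protease and endothelial lists NC was closer to PRP in every measured member, and in the epidermal differentiation list in 25 of 26. In the interferon-stimulated and muscle lists NC was closer to MNs in every member, 24 and 20. These counts describe the position of 1 further library. The genes were chosen for their gap between PRP and MNs, which fixes part of such counts, so nothing is read from them.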

How the data were processed

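The NEBNext Ultra kit and 1 μg of total RNA per library were used, per the labels. GRCm38 is the genome build that the submitters' processing notes name. Which aligner, counting tool and annotation were used, and whether strand was kept, is not given in the sources used here. Values are FPKM as the authors deposited them, 1 column per library. Of 25571 genes, 3535 were models assembled from reads, and of 22036 Ensembl identifiers 22022 matched GENCODE M21, which gave the coordinates. Symbols turned into dates were restored through the identifiers.

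The ratio was log2 of (PRP FPKM + 1) over (MNs FPKM + 1), which understates differences of low genes, for genes at or above 1 FPKM in either library. A 2-fold difference was counted, and no test was run. Depth was estimated from steps in low values of genes with 1 transcript (27.1% of them in PRP and 23.1% in MNs lay within 0.02 of a whole fragment number, against medians of 3.05% and 3.32% at other steps). Calculations used Python 3.11.15, numpy 2.4.6 and pandas 2.3.3, and were tested on simulated data.

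Named were the 20 highest and 20 lowest genes at or above 5 FPKM in either library, leaving out predicted, mitochondrial, antigen receptor and unnamed genes, up to 5 members with the largest ratio from each of 52 lists, 20 growth signalling genes, the red cell, platelet and Y-linked genes, and genes beside the thresholds; others were chosen after their values were seen. The comparison, members and lists were chosen with earlier results of these data known. Krt74, Krt85 and Xist were not analysed here. Values of some other genes are not reported here. Alternatives were the pseudocount, the filter, the scaling and the gene models.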

Additional observations from a re-analysis of the deposited data

How the results depend on the processing

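With a pseudocount of 0.1 in place of 1, 927 genes were higher in PRP and 1285 in MNs, the latter count more than 1.5 times the main one of 829. A filter of 5 FPKM left 516 and 624 of 9910 genes. Scaling moved the balance between directions: centring on the median gave 781 genes higher in PRP and 681 in MNs (53.4% of those past the threshold in PRP, against 43.6%), a trimmed-mean scaling that shifted ratios by 0.11 gave 760 and 686, and equal sums without mitochondrial genes gave 566 and 945. Without the filter 2 lists resting on 1 measured gene changed sign, B and plasma cells from -1.27 to 0.073 and hair shaft keratins from 1.51 to -0.29. No other list median of at least 1 in size changed sign under the alternatives. Apart from the Sept2 entry given below, the same held for those of the 281 named genes with a ratio of at least 1 in size. Named genes with ratios near 0, such as Itga2b, did change sign with the scaling. Medians near 0 did change sign with the scaling in red cells, basal keratinocytes, inflammatory cytokines, heat shock, acute-phase, clock and glycolysis genes. Of the genes higher in MNs, the pseudocount of 0.1 gave 10 in place of 6 Wnt, 6 in place of 3 BMP and 4 in place of 2 hedgehog pathway genes and 3 in place of 1 hair matrix regulators, and centring gave 2 in place of 4 complement genes. Of those higher in PRP, centring gave 2 in place of 1 macrophage and 2 in place of 1 EGF family genes. With the pseudocount of 0.1, 40 of the 281 named genes moved by more than 1.5-fold. The entry called Sept2 (ENSMUSG00000116048) had the highest ratio, but a second entry carries the same symbol, and their sum gave a log2 ratio of -0.12. At the other end was an entry deposited under an accession-like name, which the annotation calls Myl12b (ENSMUSG00000117098). It was listed at 0 in PRP and was at 109 FPKM in MNs, a log2 ratio of -6.78. Summed with the other Myl12b entry it gave -1.82. No paired analysis was possible because each group had 1 library. No library could be left out for the same reason, and depth limits values near 0.189 FPKM in PRP and 0.161 in MNs on a transcript of 1 kb.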

Other observations

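Gene families grouped by the stem of their symbol, after the values had been seen, added groups to those above. Elongases of very long fatty acids were higher in MNs in 4 of 6 measured (Elovl3, Elovl4, Elovl5 and Elovl6) and in none in PRP. Hydroxysteroid dehydrogenases were higher in MNs in 5 of 11 and in PRP in 1. Lipoxygenases were split: Alox12b and Alox12 were higher in PRP, and Alox15, Alox5 and Alox12e in MNs. Transmembrane serine proteases were higher in PRP in 4 of 6 (Tmprss11f, Tmprss11g, Tmprss13 and Tmprss4) and in MNs in 1 (Tmprss11e), with log2 ratios from -2.24 to 1.61. Small heat shock genes were higher in PRP in 6 of 8. Keratins as a family were split between 7 of 22 higher in PRP (Krt77, Krt78, Krt23, Krt10, Krt84, Krt80 and Krt1) and 9 in MNs (Krt24, Krt73, Krt28, Krt15, Krt75, Krt27, Krt25, Krt79 and Krt71).

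Genes of C-type lectins of dermal dendritic cells and macrophages lay together on the MNs side. From 3 to 4 Mb of chromosome 8, 6 of 20 genes were higher in MNs, 5 of them Cd209 genes, with Cd209a at 4.41 FPKM in PRP, 15.3 in MNs, 3.19 in NC and 12.9 in PRP-MNs. On chromosome 11, Mgl2 was at 3.2 FPKM in PRP, 23 in MNs, 10.2 in NC and 1.25 in PRP-MNs, and its neighbour Clec10a at 12.9 FPKM in PRP, 35.5 in MNs, 12.1 in NC and 11 in PRP-MNs. Near-identical copies within these clusters can share reads.

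Hox genes keep the body position of skin fibroblasts and keratinocytes. Of 24 tested, none passed the threshold, against 10.6% of all genes tested in either direction, and nothing is read from so small a count. Their log2 ratios ran from -0.78 to 0.72. Apobec2, a gene known from muscle, was at 541 FPKM in PRP, 96 in MNs, 215 in NC and 85.3 in PRP-MNs.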
